A study of Drosophila melanogaster with 48 samples.

Results

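Chromosome 4 genes are the protein-coding genes that the BDGP6 annotation of *Drosophila melanogaster* places on chromosome 4. The annotation gave 80 such genes, and 79 of them, matched by FlyBase identifier, were among the 17481 genes of the count table. Their first start lay at position 879 and their last end at position 1271759, and CG46466 was the gene without a row.

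Chromosome 4 is the smallest chromosome of the fly and is largely heterochromatic, yet most of its genes are transcribed. Its active genes are bound by the protein of *Pof*, and the heterochromatin protein HP1 and the histone methyltransferase encoded by *egg* act along it. It undergoes little or no crossing over, so neighbouring variants on it are inherited together. The genes it carries include regulators of patterning (*ci*, *pan*, *lgs*), both Pax6 genes (*ey*, *toy*), and several genes of the synapse.

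RNA was measured in single whole embryos by sequencing of polyadenylated RNA, and the values used here were read counts per gene. The 48 embryos came from 4 Zambia lines (ZI050, ZI094, ZI160 and ZI470) and 4 Raleigh lines (RAL307, RAL357, RAL360 and RAL517), with 3 embryos per line at late stage 5 and 3 at stage 2. Zambia lines were inbred isofemale lines, Raleigh lines were inbred lines of the Drosophila Genetic Reference Panel, and all were wild-derived with no transgene or treatment. Mothers were 3 to 10 days old and were kept at 25 °C on cornmeal food, stage 5 embryos were XY, and the sex of stage 2 embryos was unknown. RNA at stage 2 is loaded by the mother, whereas late stage 5 follows activation of the zygotic genome. The study asked how both complements differ within and between the populations. The count table gives the 3 RAL357 embryos of a stage the same number, and they are called a, b and c. The 3 embryos of a line replicate that line, and the 4 lines replicate the population. By the study's methods the minimum number of inbreeding generations was lower for the Zambia lines than the number for the Raleigh lines. Embryos of a line therefore need not be identical in genotype.

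Total counts ran from 25090803 to 30783589 per embryo, except for RAL360 replicate 3 at stage 5, which had 340746. The stage labels held in all 8 lines: the maternal RNA *osk* had line means of 3.83 to 7.90 CPM (counts scaled to a library of 1000000) at stage 5 and 1004 to 1277 CPM at stage 2, and the zygotic gene *ftz* had 322 to 478 CPM at stage 5 and 0.409 to 0.969 CPM at stage 2. ZI470 replicate 1 at stage 2 stood apart from its line, with a correlation to it of -0.052 after removal of stage means, where the other 2 embryos of that line had 0.447 and 0.475. Without both embryos together the counts between populations, for the interaction and within Zambia at stage 2 are given beside the results. Since whole embryos were used, fewer cells with a transcript and less transcript per cell cannot be told apart.

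Nearly all chromosome 4 genes were found in these embryos. Calling a gene present at a stage where the mean of at least 1 line reached 1 CPM, 62 of the 79 were present at both stages, 12 at stage 5 only (zygotic only), 1 at stage 2 only (maternal only) and 4 at neither. In percent these were 78.5, 15.2, 1.27 and 5.06, against 47.9, 12.9, 1.08 and 38.1 for the 13714 protein-coding genes of the 5 other arms. The median level per kb of exon was 10.5 CPM at stage 5 and 7.92 CPM at stage 2 on chromosome 4, against 1.10 and 0.144 CPM on the other arms. Of those arms the X alone had medians of 1.5 CPM at stage 5 and 2.5 CPM at stage 2, with 54.3% of its genes present at both stages. These shares and medians describe the genes and were not tested.

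The zygotic-only genes were *zfh2*, *onecut* and *dati* (transcription factors), *Syt7*, *Gat* and *Ekar* (a synaptotagmin, a GABA transporter and a glutamate receptor subunit), *dpr7* (a cell-surface immunoglobulin protein), *Kif3C* (a kinesin), *RhoGAP102A*, CG1674, CG1909 and CG33521. Per kb of exon *zfh2* was the highest of them, with 11.5 CPM at stage 5 and 0.0367 CPM at stage 2. *dpr7* came next with 4.15 CPM per kb at stage 5 and 0.0105 at stage 2, and CG33521 had 2.16 at stage 5 and 0.0269 at stage 2. In the class of both stages the highest per kb were *RpS3A*, a protein of the small ribosomal subunit, with 2557 CPM per kb at stage 5 and 1099 at stage 2, and *ATPsynbeta*, a subunit of mitochondrial ATP synthase, with 192 at stage 5 and 357 at stage 2. *ci*, the transcription factor of the Hedgehog pathway, had 215 CPM per kb at stage 5 and 0.340 at stage 2.

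The single maternal-only gene, CG31997, rested on few embryos. At stage 2 it had 1.96, 0 and 1.47 CPM in ZI160 and 0.186, 1.67 and 2.19 CPM in RAL517, with no embryo of the other 6 lines above 0.252 CPM. Its line means at stage 5 stayed below 1 CPM, the highest being 0.927 CPM in RAL517, although over all lines the gene rose at stage 5 (log2 fold change 2.34 ± 0.48, edgeR, adjusted p = 3.08e-05). Without RAL360 replicate 3, RAL517 replicate 1 or RAL517 replicate 3 of stage 5 it was present at both stages, and no gene was maternal only. The 4 genes below 1 CPM in every line were *yellow-h*, CG32006, *JYalpha* and *Mpv17*, and the first 3 had stage 5 means of 0.594, 0.321 and 0.248 CPM.

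**Figure D1:**
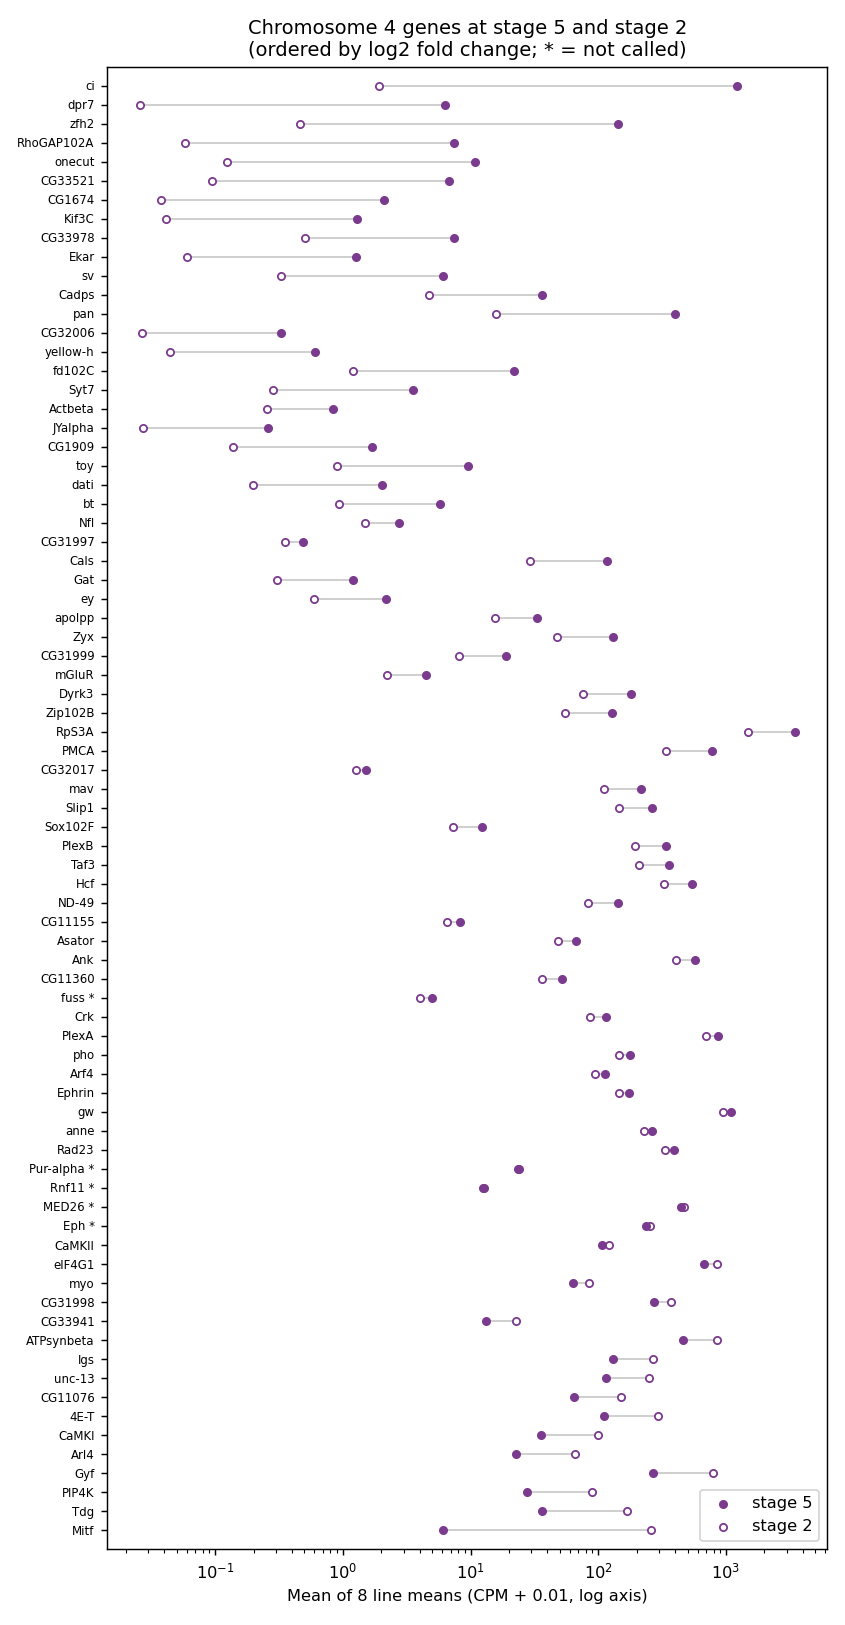
Mean level of the tested chromosome 4 genes, 1 left out, at stage 5 (filled) and stage 2 (open), as the mean of 8 line means in CPM plus 0.01 on a log axis, ordered by log2 fold change. Genes at the top, led by *ci*, are higher at stage 5 and genes at the bottom, led by *Mitf*, are lower; 5 genes marked with an asterisk were not called.

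Between the stages 73 of 78 tested chromosome 4 genes were called (edgeR quasi-likelihood test over 48 embryos, adjusted p under 0.01), of which 56 rose and 17 fell at stage 5. Over all 10193 tested genes 92.1% were called, with 54.6% rising and 37.4% falling. The shares on chromosome 4 were 93.6%, 71.8% and 21.8%. The median log2 fold change was 0.84 over the chromosome 4 genes and 0.62 over all genes, and with DESeq2's size factors both medians were higher, at 1.02 and 0.78. Medians of the other arms pooled and of the X were 0.48 and -0.22.

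Among the 19 genes of transcription and chromatin 14 rose and 2 fell. *ci* had 573 to 1539 CPM at stage 5 (median 1248) and 1.11 to 3.33 CPM at stage 2 (median 1.76), with no overlap between the stages. Its log2 fold change was 9.32 ± 0.12 (SE, adjusted p = 1.82e-41), the largest of the chromosome, and *ci* alone made up 7.69% of chromosome 4 counts at stage 5. *zfh2*, a zinc-finger homeodomain factor, had 78.6 to 267 CPM at stage 5 (median 138) and 0.0615 to 1.09 CPM at stage 2 (median 0.45), a log2 fold change of 8.38 ± 0.13 (adjusted p = 1.95e-38). All 24 stage 5 embryos again lay above all 24 stage 2 embryos.

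The Wnt effectors moved in opposite directions. *pan*, the TCF factor of the pathway, had 196.5 to 493 CPM at stage 5 (median 397.5) and 10.0 to 20.9 CPM at stage 2 (median 15.4), a log2 fold change of 4.67 ± 0.08 (adjusted p = 9.85e-38). *lgs*, which encodes the BCL9 partner of beta-catenin, had 93.6 to 177.5 CPM at stage 5 (median 126) and 230.3 to 302 CPM at stage 2 (median 265), a log2 fold change of -1.02 ± 0.04 (adjusted p = 5.49e-24). Neither gene's ranges overlapped between the stages.

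Both Pax6 genes were low at stage 2 and rose. *toy* had 3.4 to 17.6 CPM at stage 5 (median 8.60) and 0.247 to 2.12 CPM at stage 2 (median 0.64), a log2 fold change of 3.60 ± 0.17 (adjusted p = 7.72e-22). *ey* had 0.589 to 5.85 CPM at stage 5 (median 1.71) and 0.0922 to 3.21 CPM at stage 2 (median 0.389), a log2 fold change of 1.97 ± 0.21 (adjusted p = 6.21e-11). The *ey* ranges overlapped, and 2 RAL307 embryos reached 2.27 and 3.21 CPM at stage 2. The forkhead gene *fd102C*, *onecut*, *sv* (a Pax2 factor) and *NfI* also rose.

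*Mitf*, a basic helix-loop-helix factor of lysosomal genes, was the transcription factor that fell furthest. It had 0 CPM, in the shallow RAL360 embryo, to 11.2 CPM at stage 5 (median 5.88) and 198 to 378 CPM at stage 2 (median 253), a log2 fold change of -5.35 ± 0.09 (adjusted p = 5.93e-38). The next largest falls belonged to genes of other roles and were smaller. *Tdg*, a thymine DNA glycosylase, had 18.9 to 81.6 CPM at stage 5 (median 35.1) and 59.4 to 225 CPM at stage 2 (median 178), and its log2 fold change was -2.16 ± 0.09 (adjusted p = 7.01e-24).

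The RNA and translation list split, with 2 of 5 rising and 3 falling. *RpS3A* had 2767 to 4096 CPM at stage 5 and 1278 to 1750.5 CPM at stage 2, a log2 fold change of 1.21 ± 0.03 (adjusted p = 1.73e-33). *Gyf* and *4E-T*, which repress translation, and the initiation factor gene *eIF4G1* fell. *Gyf* had 164 to 371 CPM at stage 5 (median 259) and 651 to 881 CPM at stage 2 (median 812), a log2 fold change of -1.57 ± 0.04 (adjusted p = 1.13e-30).

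In the signalling list 10 of 14 rose and 3 fell. The semaphorin receptor gene *PlexB* had means of 340.2 ± 49.2 CPM at stage 5 and 194 ± 6.58 CPM at stage 2 (SD, n = 8 lines), and *PlexA* had 858.5 ± 114.5 CPM at stage 5 and 700.4 ± 36.5 CPM at stage 2. Both were called, with log2 fold changes of 0.80 ± 0.05 and 0.28 ± 0.04. *PlexB* was higher at stage 5 in all 8 lines and *PlexA* in 6. *PlexA* was lower at stage 5 in RAL357 (683.8 CPM, 756.2 CPM at stage 2) and RAL517 (693.9 CPM, 702.7 CPM at stage 2). The ligand gene *Ephrin* rose, at 174 ± 14.7 CPM at stage 5 and 146 ± 6.15 CPM at stage 2, while its receptor gene *Eph* was not called (log2 fold change -0.11 ± 0.05, adjusted p = 0.0283).

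The 3 ligands of the TGF-beta family differed. *mav* had 128 to 296.5 CPM at stage 5 (median 208) and 5.17 to 158 CPM at stage 2 (median 118), a log2 fold change of 0.96 ± 0.15 (adjusted p = 3.84e-07). Its lowest stage 2 value was that of ZI470 replicate 1, whose sister embryos had 136 and 131 CPM. *myo*, the myoglianin gene, fell, with a log2 fold change of -0.41 ± 0.07 (adjusted p = 1.35e-06). *Actbeta*, an activin, stayed at 3.8 CPM or less in every embryo and rose by a log2 fold change of 3.96 ± 0.34 (adjusted p = 1.24e-13). The kinase genes *PIP4K* and *CaMKI* fell, with log2 fold changes of -1.66 ± 0.06 and -1.50 ± 0.06.

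Of the 8 genes of the synapse and neuron list 7 rose and 1 fell. The gene that fell, *unc-13*, which primes synaptic vesicles, had 67.7 to 194 CPM at stage 5 (median 113) and 142 to 297 CPM at stage 2 (median 262), a log2 fold change of -1.11 ± 0.06 (adjusted p = 4.34e-19). Of its exon bases 25.21% overlap other genes on the opposite strand. *Cadps*, which acts in release from dense-core vesicles, had a median of 30.2 CPM at stage 5 and of 0.65 CPM at stage 2.

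Among 12 genes of metabolism, transport and other cell functions 9 rose and 3 fell. *ATPsynbeta* had 152 to 872 CPM at stage 5 (median 426.5) and 648 to 1071 CPM at stage 2 (median 856), a log2 fold change of -1.01 ± 0.09 (adjusted p = 5.62e-13). At stage 5 the ZI050 and RAL357 embryos had 637 to 872 CPM of it and those of the other lines 152 to 682 CPM. The small GTPase gene *Arl4* fell with a log2 fold change of -1.54 ± 0.07. Outside these lists CG11076 fell, with a log2 fold change of -1.23 ± 0.05.

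Most other large rises were of genes with few counts at stage 2. *dpr7* had 12 counts over 24 stage 2 embryos, 17 of them with none, and a median of 6.73 CPM at stage 5. *RhoGAP102A*, *onecut*, CG33521, CG1674, *Kif3C* and *Ekar* had 21 to 86 counts over the stage 2 embryos, with medians of 1.14 to 10.3 CPM at stage 5 and of 0 to 0.0947 CPM at stage 2. Their log2 fold changes lay between 5.07 and 7.70. CG33978, with a log2 fold change of 5.33, had 382 counts at stage 2, most of them in Raleigh. Not called were *MED26*, *fuss*, *Pur-alpha*, *Rnf11* and *Eph*.

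Chromosome 4 genes held 1.13% to 1.63% of all counts per embryo at stage 5 and 1.18% to 1.41% at stage 2. Averaged over lines the share was 1.44% ± 0.0771 at stage 5 and 1.31% ± 0.0396 at stage 2 (SD, n = 8 lines). Zambia and Raleigh lines had 1.43% ± 0.0382 and 1.44% ± 0.111 at stage 5 (n = 4 each), and 1.28% ± 0.0205 and 1.34% ± 0.0219 at stage 2. At stage 2 every Zambia line mean, at 1.25% to 1.30%, lay below every Raleigh line mean, at 1.31% to 1.36%. For ZI470 this rested on the doubted replicate 1, at 1.18%. Its sister embryos had 1.31% and 1.36%, within the range of the Raleigh line means. *RpS3A* supplied 22.1% of the chromosome 4 counts at stage 5 and 12.3% at stage 2. Without this gene the share was not higher at stage 5 than at stage 2.

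**Figure D2:**
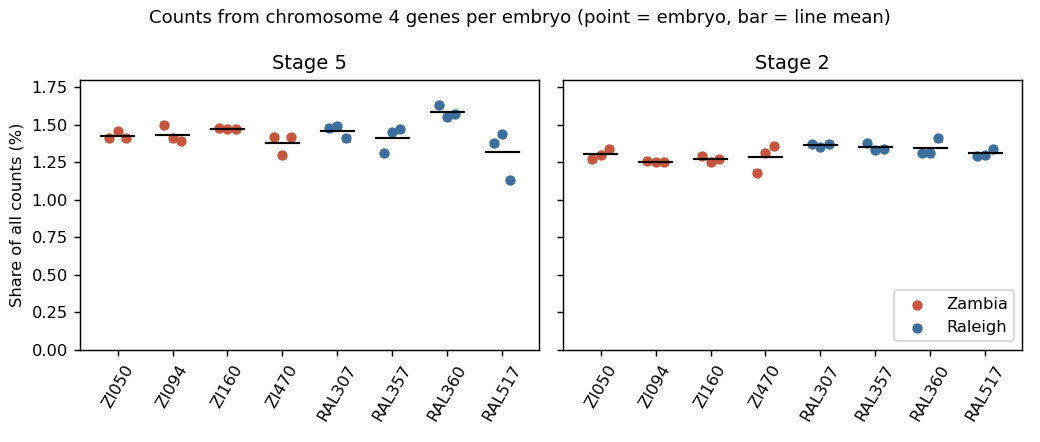
Share of all counts, in percent, that fell on chromosome 4 genes in each embryo (points) and its line mean (bars), at stage 5 and stage 2. At stage 5 the lines overlap, with 1 RAL517 embryo lowest at 1.13%. At stage 2 the 4 Zambia line means lie below the 4 Raleigh line means, which for ZI470 rests on replicate 1 at 1.18%.

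Between populations at stage 2 every chromosome 4 gene that edgeR called was lower in Zambia. Of 67 tested genes 9 were called, all lower in Zambia, against 6.75% of the 7566 genes tested, 2.89% higher and 3.86% lower. No gene was called higher by edgeR, while 2 higher genes, *RpS3A* and *Actbeta*, had an unadjusted p under 0.05 and DESeq2 called 1 higher, *RpS3A*, and 13 lower. Without the 2 doubted embryos edgeR called 8, all lower, with no share of all genes beside it. Fold changes were below 0 for 58 of the 67 (86.6%), against 48.3% of all genes, and the median log2 fold change was -0.14 against 0.01. The line means of the populations did not overlap for 8 of the 67, against 5.95% of all genes. All 8 were lower in Zambia, where 3.38% of all genes were lower and 2.56% higher without overlap. The embryo was the unit of this test. With the counts summed by line, so that the 4 lines are the replicates, edgeR called none. Then 15 genes had an unadjusted p under 0.05, and 14 of those were lower in Zambia. The share of all genes at that p is not given here, so this count is no result particular to chromosome 4.

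*Cadps* differed most. It had 0.0922 to 1.09 CPM in the 12 Zambia embryos (median 0.331) and 0.282 to 32.6 CPM in the 12 Raleigh embryos (median 4.27). RAL517 had 15.3, 32.6 and 23.7 CPM and RAL307 had 15, 3.47 and 10.2 CPM, whereas RAL360 had 0.714, 0.282 and 0.699 CPM and lay within the Zambia range. The log2 fold change was -4.55 ± 0.74 (adjusted p = 0.000229), and an exact permutation test over 8 line means gave p = 0.0286, two-sided, the smallest that 35 splits allow. The RAL360 mean lay close to the Zambia means, and the line means overlapped when ZI160 replicate 3, ZI470 replicate 2 or 3, or RAL360 replicate 1 or 3 was left out.

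CG33978 had 0 to 0.163 CPM in Zambia embryos (median 0.0315) and 0.031 to 2.16 CPM in Raleigh embryos (median 0.781), a log2 fold change of -4.41 ± 0.62 (adjusted p = 5.29e-05). *NfI*, a transcription factor gene, was called at a log2 fold change of -3.56 ± 0.87 (adjusted p = 0.00699). RAL307 had 14.4, 4.92 and 7.59 CPM, while no other Raleigh embryo exceeded 2.75 CPM and Zambia embryos had up to 1.26 CPM. Without RAL307 replicate 1 the adjusted p of *NfI* was 0.0178.

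*Cals*, the calsyntenin gene, had 7.42 to 27.2 CPM in Zambia embryos (median 19.1) and 17.0 to 67.3 CPM in Raleigh embryos (median 38.8). RAL307 and RAL517 were the high lines, at line means of 58.8 and 52.3 CPM, and the log2 fold change was -1.11 ± 0.23 (adjusted p = 0.00166). The other 5 differences were smaller, and in each the 4 Zambia line means lay below the 4 Raleigh line means. CG33941 had 13.2 to 22.9 CPM in Zambia embryos and 22.9 to 35.2 CPM in Raleigh embryos, a log2 fold change of -0.64 ± 0.09 (adjusted p = 3.82e-05). Of its exon bases 42.95% overlap *Asator* on the other strand.

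*anne*, *Arf4* (a small GTPase of vesicle traffic), *PIP4K* and CG11360 had log2 fold changes of -0.29 ± 0.05, -0.20 ± 0.04, -0.17 ± 0.04 and -0.25 ± 0.07. For *PIP4K*, for example, Zambia line means ran from 77.2 to 87.6 CPM and Raleigh line means from 89.7 to 99.3 CPM. Without RAL517 replicate 1 the adjusted p of CG11360 was 0.0190. An exact permutation test over line means gave p = 0.0286 for each of the called genes but *NfI* (p = 0.0857). The genes were picked for this same difference, so the test adds no separate support.

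At stage 5, 13 of 78 tested genes were called, 3 higher and 10 lower in Zambia, against 13.3% of all 10000 tested genes, 6.01% higher and 7.25% lower. Without the 2 doubted embryos edgeR called 2 higher and 10 lower in Zambia. The median log2 fold change was -0.08 over chromosome 4 genes and 0 over all genes. Line means did not overlap for 10 of the 78, against 7.37% of all genes. Of these 2 were higher and 8 lower in Zambia, against 3.92% and 3.45% of all genes. Without RAL517 replicate 2 the count was 5 (2 higher and 3 lower), against 7.07% of all genes, and CG31997, CG33978, *Cals*, *Sox102F* and *onecut* overlapped. Without the shallow RAL360 replicate 3 it was 10 (1 higher and 9 lower), against 6.82% of all genes. In that case *Zip102B*, *fuss* and *onecut* overlapped and other genes no longer did. With counts summed by line edgeR called none, and 15 genes had an unadjusted p under 0.05, with no share of all genes beside it. The 13 calls fell to 8 or fewer without RAL357 replicate c, ZI050 replicate 1 or 3, or any single ZI470 embryo, the lowest being 7. They fell to 7 or 8 without line ZI050, ZI470, RAL307 or RAL357. Counts of calls without embryos or lines are given here without the share over all genes. They show only how far the calls rest on single embryos or lines. Early zygotic genes outside chromosome 4 also differed: the summed level of 7 of them (*ftz*, *eve*, *sna*, *twi*, *Kr*, *kni* and *slp1*) was 1748 to 1868 CPM in Zambia lines and 1418 to 1680 CPM in Raleigh lines. Of the 7 *Kr* (log2 fold change 0.47, adjusted p = 0.000318) and *twi* (0.18, adjusted p = 0.00875) were called higher in Zambia, and their part in the differences was not tested.

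At stage 5 *Cadps* had the smallest adjusted p. It had 20.4 to 31.6 CPM in Zambia embryos (median 24.3) and 28.8 to 71.0 CPM in Raleigh embryos (median 48.8). Every Zambia line mean, 21.4 to 27.5 CPM, lay below every Raleigh line mean, 39.4 to 56.2 CPM, with a log2 fold change of -0.98 ± 0.11 (adjusted p = 1.26e-06). CG33978, *NfI*, CG33941 and *Cals* were also called at both stages, so 5 genes were shared by the 9 of stage 2 (55.6%) and the 13 of stage 5 (38.5%). Over all genes 171 were shared, 33.5% of the 511 called at stage 2 and 12.9% of the 1326 called at stage 5. The 2 stages came from separate embryos of the same lines.

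*fuss*, a transcriptional corepressor of the Ski family, had 1.01 to 4.11 CPM in Zambia embryos (median 2.03) and 1.64 to 14.4 CPM in Raleigh embryos (median 6.06), a log2 fold change of -1.74 ± 0.33 (adjusted p = 0.000508). *Sox102F*, a Sox transcription factor gene, had 4.57 to 10.9 CPM in Zambia embryos (median 9.46) and 6.83 to 23.4 CPM in Raleigh embryos (median 15.5), a log2 fold change of -0.85 ± 0.17 (adjusted p = 0.000769). Line means of *Sox102F* were 6.88 to 10.2 CPM in Zambia and 11.9 to 21.2 CPM in Raleigh. Those of *fuss* also did not overlap, but this rested on the shallow RAL360 embryo, whose 4 counts were 11.7 CPM where the other 2 RAL360 embryos had 1.64 and 1.84 CPM. Without it the RAL360 mean of *fuss* was 1.74 CPM, below the Zambia line means of 1.75 to 2.67 CPM, and without it and ZI470 replicate 1 of stage 2 the log2 fold change was -1.71, still called. *bt*, which encodes the muscle protein projectin, was called with RAL357 embryos at 20, 15.3 and 19.6 CPM and no other embryo above 9.79 CPM, and its adjusted p was 0.0168 without RAL357 replicate a. *sv* and CG31997 were the other genes lower in Zambia, with log2 fold changes of -0.71 ± 0.19 and -2.08 ± 0.42.

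The 3 genes higher in Zambia at stage 5 were abundant, and each had overlapping line means. *Rad23*, a ubiquitin receptor of the proteasome and of DNA repair, had 353 to 504 CPM in Zambia embryos (median 442) and 270 to 484 CPM in Raleigh embryos (median 322), a log2 fold change of 0.39 ± 0.09 (adjusted p = 0.00279). The log2 fold change of *CaMKII*, a calcium-dependent kinase gene, was 0.34 ± 0.09 (adjusted p = 0.00591), and that of *RpS3A* was 0.21 ± 0.06 (adjusted p = 0.00902). The calls of *CaMKII*, *RpS3A*, *sv*, CG33941 and *Cals* were lost when 1 embryo was left out, with adjusted p up to 0.0125, 0.0181, 0.0161, 0.0157 and 0.0164. Those embryos were RAL517 replicate 1, RAL307 replicate 1, RAL307 replicate 2, RAL357 replicate b and RAL307 replicate 2. *Pof*, which is not on chromosome 4, was also higher in Zambia at stage 5 (log2 fold change 0.37, adjusted p = 0.000481) and not at stage 2 (0.04, adjusted p = 0.61), while *egg* and the HP1 gene were not called at either stage. Its part in the differences was not tested.

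**Figure D3:**
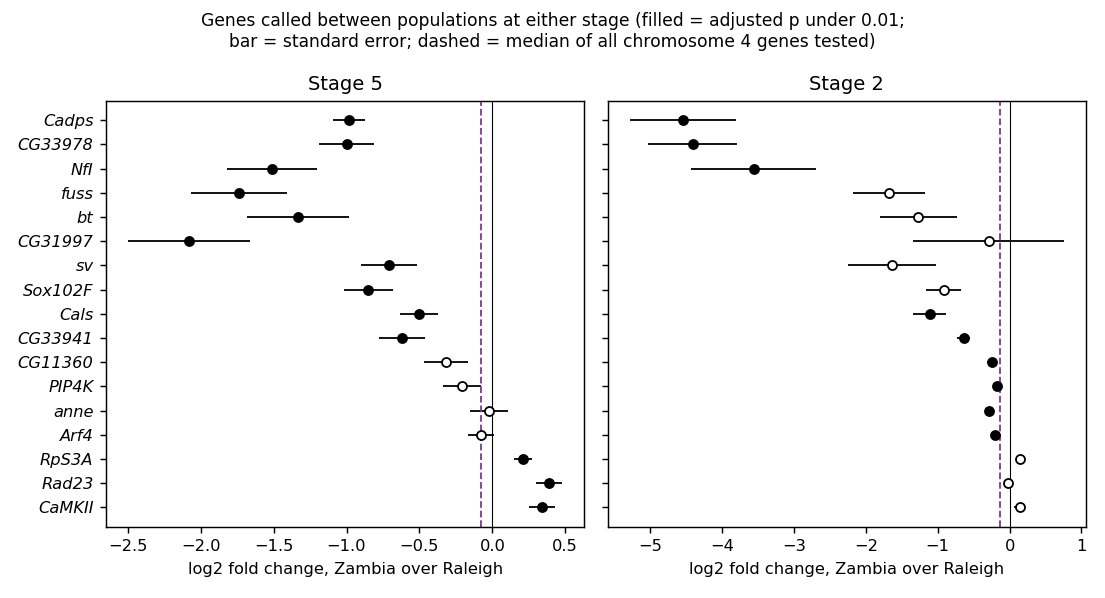
Log2 fold change of Zambia over Raleigh, with its standard error, for the 17 chromosome 4 genes called between populations at stage 5 (left) or stage 2 (right). Filled points passed an adjusted p under 0.01 and the dashed line is the median of all tested chromosome 4 genes, -0.08 at stage 5 and -0.14 at stage 2; the horizontal axes differ between panels.

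The change between stages differed between populations for 9 of 78 genes, against 18.1% of the 10193 genes tested. All 9 had a more positive change in Zambia, a direction that 9.08% of all genes took, and 9.03% took the other. In the other direction edgeR called none, 1 gene, *CaMKI*, had an unadjusted p under 0.05, and DESeq2 called 4 genes in all, none in that direction. Without the 2 doubted embryos edgeR called 7, without *Tdg* and *fd102C* (adjusted p = 0.011 and 0.0119), and the share of all genes is not given for that fit. On line sums edgeR called none, and 9 genes had an unadjusted p under 0.05, with no share of all genes beside it. The genes were CG33978, *Cadps*, *fd102C*, *Zyx*, *Tdg*, *Rad23*, *MED26*, *Asator* and *Ank*.

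For *Cadps* the mean change on the log2(CPM + 0.5) scale was 4.85 in Zambia lines and 3.23 in Raleigh lines, and the fitted interaction was 2.67 (adjusted p = 1.21e-06). CG33978 had mean changes of 3.34 and 2.89 on that scale and a fitted interaction of 3.54 (adjusted p = 2.81e-06), which rests on Zambia counts near 0 at stage 2. *Rad23* gained in Zambia, with line means of 368 to 499.6 CPM at stage 5 and 295 to 375.5 CPM at stage 2. In Raleigh it had 274 to 427 CPM at stage 5 and 327 to 345.5 CPM at stage 2, and the interaction was 0.43 (adjusted p = 7.40e-08).

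*Zyx*, the zyxin gene of cell adhesion and Hippo signalling, had Zambia line means of 101 to 136 CPM at stage 5 and 9.92 to 43.4 CPM at stage 2. In Raleigh they were 113 to 161 CPM at stage 5 and 30.8 to 114.5 CPM at stage 2. The interaction of *Zyx* was 1.08 (adjusted p = 0.00459), and *fd102C* had one of 1.17 (adjusted p = 0.00487). *Tdg* had 0.62 (adjusted p = 0.00536), where ZI094 alone was low at stage 2. The calls of *Zyx*, *fd102C* and *Tdg* were lost without RAL357 replicate a at stage 2, RAL517 replicate 3 at stage 2 and ZI470 replicate 2 at stage 5, with adjusted p of 0.0118, 0.0196 and 0.0121.

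Among the Zambia lines at stage 2 9 of 61 tested genes were called, against 17.2% of all 7242 genes. The number depended on ZI470 replicate 1, without which 25 genes were called. Leaving out any single embryo of ZI050, ZI094 replicate 2 or 3, or ZI160 replicate 3 gave 5. Here and in the other fits within populations, counts without an embryo are given without the share over all genes. They show only how far the calls rest on single embryos. Over the 9 genes ZI094 was the lowest line for 4 and the highest for 3. *Tdg* had 59.4, 59.9 and 69.7 CPM in ZI094, against 168, 188 and 192 CPM in ZI050, 169, 193 and 176 CPM in ZI160, and 149.6, 213 and 225 CPM in ZI470 (adjusted p = 6.46e-05). The ZI094 embryos lay below every other embryo of either population, where the lowest was 149.6 CPM. Of the exon bases of *Tdg* 17.71% overlap *zfh2* on the other strand.

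CG11155 was present at stage 2 in ZI094, with 8.57, 10.6 and 6.39 CPM, and at or below 1.36 CPM in the other 9 Zambia embryos (adjusted p = 0.000202). *Actbeta* followed the same line, with 0.988, 1.48 and 2.52 CPM in ZI094 and no more than 0.0623 CPM elsewhere in Zambia (adjusted p = 0.000153). CG31999 had 15.8, 10.7 and 17.5 CPM in ZI094 and was lowest in ZI050, at 0.738, 1.96 and 1.97 CPM (adjusted p = 0.00754). The same 3 genes were called within Zambia at stage 5, again with ZI094 highest. *Asator*, a tubulin kinase gene, was lowest in ZI094 and highest in ZI160 (adjusted p = 0.000227), and CG11076 was lowest in ZI470, at 134, 83.5 and 96.3 CPM (adjusted p = 0.00753). The calls of CG31999 and CG11076 were lost without ZI094 replicate 3 and ZI470 replicate 3, with adjusted p of 0.0288 and 0.0293.

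Among the Raleigh lines at stage 2 24 of 65 tested genes (36.9%) were called, against 21.0% of all 7356 genes. Leaving out each embryo gave 15 to 22, the lowest without RAL360 replicate 1. The median log2 ratio of the highest to the lowest line, with 0.5 CPM added, was 1.49 over these genes and 0.72 over all genes called. RAL307 was the highest line for 13 of the 24 (54.2%), against 22.8% of all called genes. By list the called genes were 8 of 18 tested genes of transcription and chromatin, 4 of 7 of synapse and neuron and 4 of 10 of metabolism and transport. They were 4 of 13 of signalling, 0 of 5 of RNA and translation and 4 of 12 outside the lists. The lists are small and have no matching share over all genes, so no list is set apart by these counts.

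The largest ratio was that of *Cadps*, 22.9-fold between RAL517 and RAL360 (adjusted p = 0.00161). *apolpp*, which encodes the apolipophorin lipid carrier, had 51.4, 35.3 and 47 CPM in RAL307 and 17.9, 34.7 and 27.6 CPM in RAL517, but 0.621, 4.27 and 2.35 CPM in RAL360 (adjusted p = 0.00618). *Zyx* had the same upper lines, with 144, 99.3 and 100.3 CPM in RAL307 and 67.0, 92.4 and 83.4 CPM in RAL517. *Cals* did as well, and *Zyx* and *Cals* were called with adjusted p of 0.00296 and 0.00057. RAL307 embryos lay above all others of Raleigh for *apolpp* and *Zyx*, and not for *Cals*.

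*fuss* was lowest in RAL360, at 0.714, 0.314 and 0.953 CPM, and highest in RAL517, at 8.95, 9.91 and 13.7 CPM (adjusted p = 0.000198). *mGluR*, the metabotropic glutamate receptor gene, had 8.33, 8.61 and 6.43 CPM in RAL357, above every other Raleigh embryo (adjusted p = 0.00129). CG11155 had 16, 25.1 and 27.7 CPM in RAL517 and 4.28, 4.89 and 2.57 CPM in RAL360 (adjusted p = 0.00556). For *NfI* the adjusted p was 0.00474. The calls of *apolpp*, *NfI* and CG11155 were lost when RAL360 replicate 3, RAL307 replicate 1 and RAL517 replicate 3 were left out, with adjusted p of 0.0193, 0.0193 and 0.0229.

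**Figure D4:**
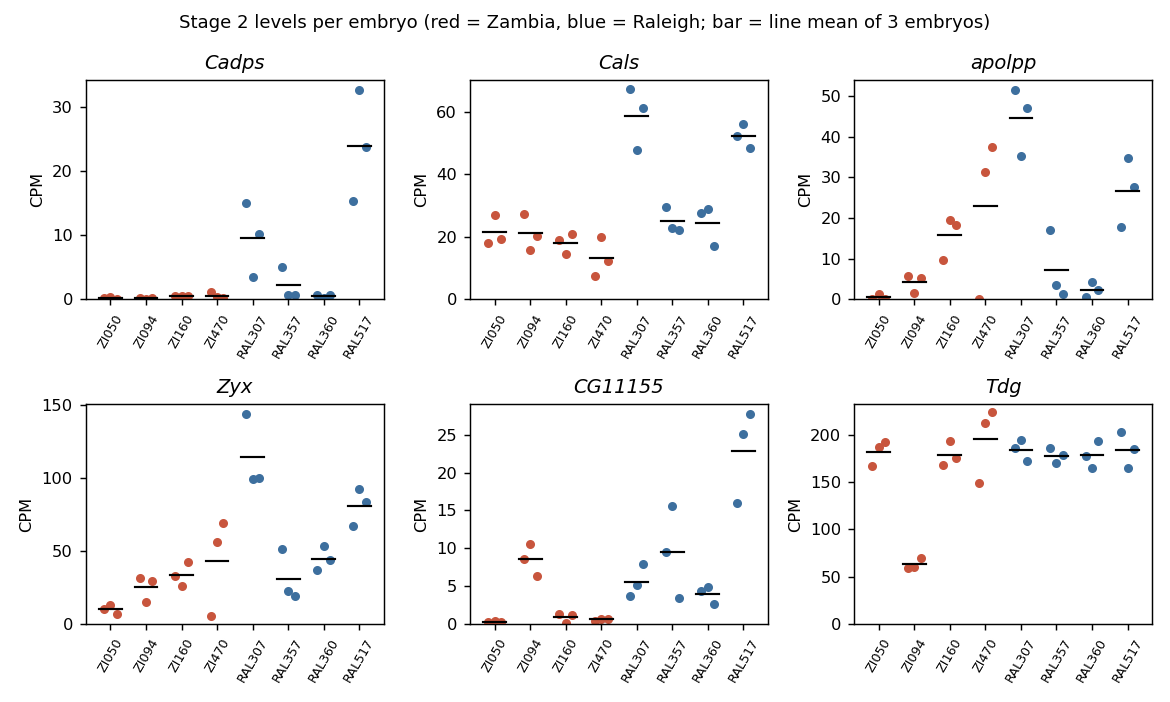
Stage 2 level in CPM of 6 chromosome 4 genes in each embryo (points; red Zambia, blue Raleigh), with the mean of the 3 embryos of a line (bars). *Cadps* is at 1.09 CPM or less in all Zambia embryos, *Cals*, *apolpp* and *Zyx* are high in RAL307 and RAL517, and *Tdg* is low in ZI094 only; for *apolpp* and *Zyx* 1 ZI470 embryo lies far below the other 2.

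Several of the genes that varied at stage 2 lie side by side. From *Zyx* to CG32017 (positions 1057365 to 1162158) the annotation lists 8 of the genes in a row, *Zyx*, *apolpp*, *Actbeta*, *sv*, *Cals*, *Arf4*, CG11155 and CG32017, and 7 of them, all but *Arf4*, were called within Zambia or Raleigh at stage 2. Of all chromosome 4 genes tested in either population 30 of 66 (45.5%) were called there, against 31.8% of all genes. This run was picked after its values were seen, and *Zyx* with *apolpp*, *sv* with *Cals* and CG11155 with CG32017 overlap on opposite strands. In ZI470 replicate 1 *Zyx* had 5.17 CPM and *apolpp* 0.0994 CPM, where its sister embryos had 56.2 and 68.9 CPM of *Zyx* and 31.3 and 37.4 CPM of *apolpp*.

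Presence at stage 2 also varied among lines. Of the 79 genes 48 reached 1 CPM in all 8 lines, 15 in 1 to 7 lines and 16 in none. The number per line was 51 to 53 in Zambia and 53 to 61 in Raleigh, highest in RAL307. Over the whole count table, stage 2 embryos had a count for 8586 to 8938 genes in Zambia and for 8784 to 9109 in Raleigh. The 15 were *ey* and *sv* and *Actbeta* in 1 line each, CG31997, CG33978, *NfI*, *bt* and CG32017 in 2, *toy* and *Cadps* in 3, *fd102C* in 4, CG11155 in 5, *mGluR* in 6, and *fuss* and *apolpp* in 7. At stage 5, 67 genes reached the limit in all lines and 7 in 1 to 7 lines, with 68 per line in ZI470 and 71 to 73 in the others. The share of all genes at 1 CPM per line is not given here, so these counts are no result particular to chromosome 4.

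Within Zambia at stage 5, 31 of 76 tested genes (40.8%) were called, against 50.2% of all 9371 genes. Without any single ZI050 embryo the count was 18 to 20, and without ZI160 replicate 2 it was 20. The largest ratio belonged to CG31999, with 30.5, 42.5 and 35.2 CPM in ZI094 and 5.81, 2.44 and 2.68 CPM in ZI470 (adjusted p = 7.66e-06). CG11155 had 10.5, 11.2 and 10.6 CPM in ZI094 and at most 1.93 CPM in the other Zambia lines (adjusted p = 2.02e-07). *dati*, a zinc-finger factor gene, had 2.65, 4.23 and 3.85 CPM in ZI160 and 0.565, 0.463 and 0.856 CPM in ZI470 (adjusted p = 4.50e-05), with neither line overlapping the rest. *Actbeta* and *mGluR* were called with adjusted p of 0.00104 and 0.0018.

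Within Raleigh at stage 5, 11 of 78 (14.1%) were called, against 25.0% of all 9588 genes. Without RAL307 replicate 1 or 2, or RAL360 replicate 1, the count was 6. *bt* had 20, 15.3 and 19.6 CPM in RAL357, above all other Raleigh embryos, which had 0 to 9.79 CPM (adjusted p = 0.000644). *zfh2* had 267, 222 and 228 CPM in RAL357, where no other Raleigh embryo exceeded 188 CPM (adjusted p = 0.00894). *mGluR* was again highest in RAL357, at 9.89, 7.99 and 12.2 CPM (adjusted p = 0.00569), and *apolpp* again highest in RAL307 and lowest in RAL360 (adjusted p = 0.0048). *ey* was lowest in RAL517, at 0.78, 1.63 and 0.729 CPM (adjusted p = 0.00884), and CG31999 was called with an adjusted p of 0.00781. The calls of *zfh2*, *mGluR*, *apolpp*, *ey* and CG31999 were each lost when 1 embryo was left out, with adjusted p of 0.0300, 0.0216, 0.0202, 0.0452 and 0.0243. Those embryos were RAL357 replicate a, RAL357 replicate c, RAL360 replicate 2, RAL517 replicate 3 and RAL360 replicate 2.

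Of 60 genes tested in all 4 comparisons among lines 18 (30.0%) were called in none, against 29.8% of all genes so tested. They included *ci*, both plexin genes, *Eph* and *Ephrin*, *mav*, the microRNA silencing factor gene *gw*, *eIF4G1*, *4E-T*, *Hcf* and the Polycomb group gene *pho*. A gene that misses the threshold is not shown to be equal among lines.

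Taken over all its chromosome 4 genes, ZI470 at stage 5 was below the 3 other Zambia lines, with a median log2 ratio of -0.22 and 15 of 76 genes above 0 (19.7%), against a median of -0.02 and 47.2% above 0 over all genes. RAL517 at stage 5 was likewise below the 3 other Raleigh lines, with a median of -0.23 and 14 of 78 genes above 0 (17.9%), against -0.01 and 48.8% over all genes. This rested in large part on replicate 3, in which chromosome 4 genes held 1.13% of counts, where replicates 1 and 2 had 1.38% and 1.44%. Without replicate 3 the RAL517 median was -0.08, with 28 of 78 genes above 0 (35.9%), against -0.01 and 48.3% over all genes. For ZI470 the median was -0.16 to -0.25 when each embryo was left out. ZI160 was above its population at stage 5, with a median of 0.17 and 52 of 76 genes above 0 (68.4%), against -0.03 and 45.9% over all genes. In the 5 other lines the stage 5 median of chromosome 4 genes lay between -0.02 and 0.12, and at stage 2 it lay between -0.09 and 0.05 in all 8 lines. ZI470 was the lowest line for 16 of the 31 genes called within Zambia at stage 5 (51.6%), against 24.8% of all called genes. The summed level of *Pof*, *egg* and the HP1 gene at stage 5 was 1037 CPM in ZI470 and 1049.9 CPM in RAL517. The other lines had 915 to 1133.5 CPM. Mean stage 5 levels were 58.1 CPM for *Pof*, 310 CPM for *egg* and 665 CPM for the HP1 gene, so the sum says little of *Pof*. The part of these genes in the differences among lines was not tested.

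**Figure D5:**
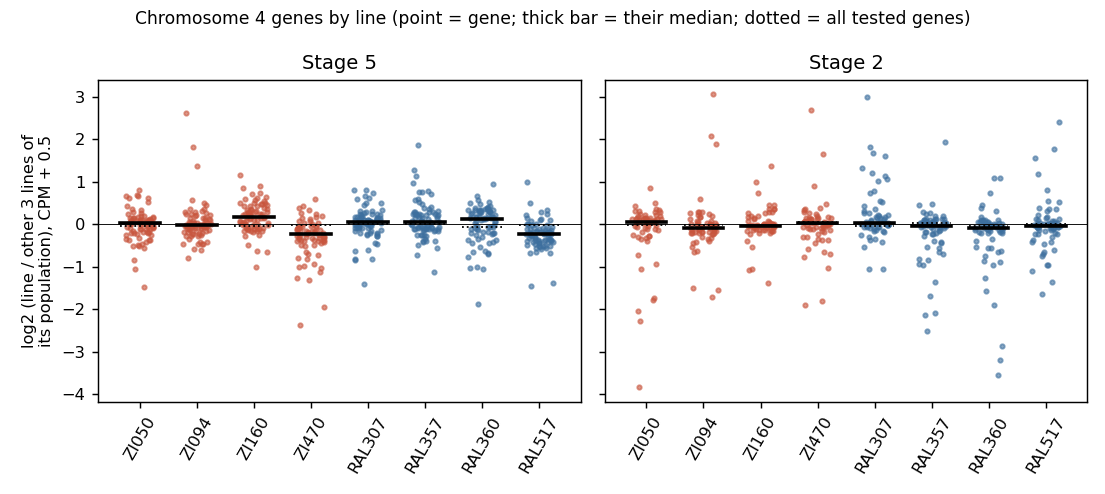
Log2 ratio of each line's mean to that of the 3 other lines of its population, with 0.5 CPM added, for each tested chromosome 4 gene (points) at stage 5 and stage 2; thick bars are the medians of these genes and dotted bars those of all tested genes. At stage 5 ZI470 and RAL517 have medians of -0.22 and -0.23, below those of all genes (-0.08 for RAL517 without replicate 3), and at stage 2 the medians lie near 0 with single genes far from them.

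Counts of overlapping genes are uncertain. Of the 79 genes 12 shared over 10% of their exon bases with another gene, among them *Rnf11* with *PMCA*, CG33941 with *Asator*, *Tdg* with *zfh2* and CG11076 with *ATPsynbeta*. Library reagents kept the strand of the RNA, but whether the counting used it is not given in the sources used here.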

How the data were processed

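Single whole embryos were sequenced with stranded libraries of polyadenylated RNA. Read counts per gene were deposited by the authors as whole numbers without normalisation, and the submitters' processing notes name cutadapt, HISAT2 2.1.0, featureCounts and DESeq2, while the strand setting is not given in the sources used here. Groups came from the sample labels. Genes were matched to the BDGP6 annotation (Ensembl release 115), which matched 17343 of 17481 genes; the other 138 held 1.125% of counts and stayed in the fits. Members and gene lists were chosen with earlier results of these data known. Levels are CPM on TMM-scaled library sizes, averaged over embryos within a line. Tests used the edgeR 4.0.16 quasi-likelihood test on all genes that passed filterByExpr (minimum count 10, total 15), with Benjamini-Hochberg adjusted p under 0.01. Fits within a population compared its 4 lines at 1 stage, with embryos as replicates, so these p-values measure the spread between embryos. By the study's methods many mothers laid the embryos, so embryos of a line are unlikely to share one. An exact two-sided permutation over 8 line means can give no p below 0.0286. Genes named were the 10 called with the largest change in each direction between stages, all called between populations, the 6 with the largest estimate for the interaction and the 6 with the largest ratio of line means in each fit within a population, the 3 highest per kb in each class, and pathway groups; *Asator*, *Ank* and *MED26* in the interaction, *Cals* and *Zyx* within Raleigh at stage 2, and the run of neighbours were added after their values were seen. For 1 gene that the rule names, results are not reported here. Alternatives were DESeq2 1.42.0 (likelihood ratio test and size factors), other filters and thresholds, line sums, replicate blocks, and leaving out embryos or lines; leaving out lines, both doubted embryos, or 1 embryo from line means was chosen after seeing the data. On simulated counts with 200 genes changed 4-fold, the stage fit over 10193 genes recovered 200 with 1 false call. The interaction fit recovered 191 with 4 false calls, and the fit between populations at stage 5 recovered 199 with 5. The fit within Raleigh at stage 5 recovered 193 with 2. The simulation held 1 dispersion for all genes and no further variation among lines, so it does not test calls where lines are the replicates.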

Additional observations from a re-analysis of the deposited data

Results flagged for a closer look

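At stage 5 the ZI094 line mean of CG11155 stood above the 3 other Zambia lines, at 10.8 CPM. So did the RAL307 mean of *Cals* in Raleigh, at 193.8 CPM. The ZI160 mean of CG33978 was 6.79 CPM, where the other Zambia lines had 4.34 to 4.72 CPM. That gene was not called within Zambia at stage 5 (edgeR, adjusted p = 0.141). At stage 2 the ZI094 means of *Actbeta* (1.66 CPM) and CG11155 (8.53 CPM) stood above the 3 other Zambia lines, and that of *Tdg* (63.0 CPM) stood below them. Among Raleigh lines the RAL307 mean of *NfI* (8.96 CPM) and the RAL357 mean of *mGluR* (7.79 CPM) stood above the rest at stage 2. In each case the gap to the next line exceeded Dixon's 95% critical value for 4 values. Chance passes it in about 5% of groups, so some of these cases may be chance.

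The log2 change between stages was more positive in Zambia than in Raleigh by the edgeR interaction test for CG33978 (3.54), *Cadps* (2.67), *fd102C* (1.17), *Zyx* (1.08), *Tdg* (0.62), *Rad23* (0.43), *MED26* (0.42), *Asator* (0.31) and *Ank* (0.27).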

How the results depend on the processing

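Of the values of single named genes under alternatives 390 kept their call and 85 lost it, and none changed direction. The higher share of counts at stage 5 did not hold without *RpS3A*. Counts of calls in this section are of chromosome 4 genes, without the share over all genes beside them. At an adjusted p under 0.05 the counts were 18 for the interaction, 19 between populations at stage 2 and 21 at stage 5, 24 within Zambia and 37 within Raleigh at stage 2, and 24 within Raleigh at stage 5. DESeq2's likelihood ratio test gave 4 for the interaction, 14 between populations at stage 2, 23 within Zambia at stage 2 and 19 within Raleigh at stage 5. Line sums gave 0 calls for the interaction and between populations at either stage, with 9, 15 and 15 genes at an unadjusted p under 0.05. With all 24 embryos of a stage in 1 fit the counts were 22 within Zambia at stage 2, 18 within Zambia at stage 5 and 22 within Raleigh at stage 5. Without a filter the last was 19, and without both doubted embryos 25 genes were called within Zambia at stage 2. Between populations at stage 5 the count was 7 without ZI050 or RAL357, 8 without ZI470 or RAL307, and 7 with RAL357 left out of the fit that is compared with the replicate block.

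Leaving out 1 embryo at a time gave 56 to 57 genes rising and 17 to 19 falling between stages, 8 to 13 for the interaction, 7 to 10 and 7 to 15 between populations at stages 2 and 5, 5 to 25 within Zambia and 15 to 22 within Raleigh at stage 2, and 18 to 29 within Zambia and 6 to 13 within Raleigh at stage 5. It gave 0 to 1 maternal only genes. With limits of 0.5 or 2 CPM, or all 8 lines at the limit, 0 were maternal only. With all 8 lines at the limit 19 genes were zygotic only and 12 low, and 2 were low at 0.5 CPM. The share of counts was 1.54% at stage 5 and 1.37% at stage 2 over the protein-coding genes of 6 arms. Without *RpS3A* it was 1.12% at stage 5 and 1.15% at stage 2, so the order of the stages reversed. The cause of these changes was not tested.

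Embryos with the same replicate number correlated above 0.1 in 16 of 63 stage 5 pairs and 24 of 63 stage 2 pairs, and replicate numbers were therefore not used to pair embryos. With the number as a replicate block, and RAL357 left out because its 3 columns carry the same number, the calls were 55 rising and 18 falling between stages, 8 for the interaction, 7 and 6 between populations at stages 2 and 5, 7 and 16 within Zambia and Raleigh at stage 2, and 25 and 15 at stage 5. The embryo with 340746 counts limits detection of low genes. Promoter motifs and protein identity were not run.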
